A study of Mus musculus with 3 samples.

Results

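The genes Isl1, Pou4f1, Prph, Avil, Tlx3 and Drgx, a set of sensory neuron factors and markers chosen by name, were followed in single-nucleus ATAC-seq of the mouse embryo, where Tn5 transposase cuts open chromatin and each cut pair is read as a unique fragment. These are 6 of the 21593 protein-coding genes counted, and all 6 passed the filter on low counts. Nuclei came from wild-type (WT) C57BL/6JRj embryos of 3 stages (E12.5, E13.5, E15.5), with 1 library per stage and no treatment. Each library was made from frozen sections of littermates of the embryos used for spatial profiling, and its nuclei were stained with 7-AAD and flow sorted, so a library samples the tissues in those sections rather than whole embryos. The 1879 nuclei carry 12 cluster numbers given by the study, which drew them from accessibility data that include these nuclei. A p-value for a cluster is therefore not independent of how the cluster was made.

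Sensory neurons of the dorsal root and cranial ganglia arise from neural crest and placodes, and their identity is set by homeodomain transcription factors. Isl1 (a LIM-homeodomain factor) and Pou4f1 (a POU-homeodomain factor, also called Brn3a) act together in most of them, but Isl1 also marks motor neurons, heart progenitors and hindlimb mesenchyme. Tlx3 and Drgx (also called Prrxl1 or Drg11) are homeodomain factors of nociceptive and dorsal horn neurons. Prph encodes peripherin, an intermediate filament of peripheral neurons, and Avil encodes advillin, an actin-binding protein enriched in somatosensory neurons. Open chromatin at a gene shows that transposase can reach it, not that it is transcribed.

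Fragments were counted in the gene body plus 2 kb upstream, in mm10 coordinates of the GENCODE vM21 annotation. Isl1 spans chr13:116298281-116309689 on the minus strand. Pou4f1 spans chr14:104461676-104467999 on the minus strand. Tlx3 spans chr11:33200752-33203589 on the minus strand. Drgx spans chr14:32599407-32649246 on the plus strand, and its counted span of 51.8 kb is the longest of the 6, against 4.84 kb for Tlx3. Prph spans chr15:99055174-99058978 on the plus strand. Avil spans chr10:127000709-127020994 on the plus strand. Its counted span overlaps those of Ctdsp2 and Tsfm, and 43.9% of the 2036 Avil fragments outside cluster 4 were shared with one of these neighbours, so the Avil level is uncertain.

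Isl1 and Pou4f1 had CpG-dense starts and Avil did not. In the RefSeq promoter windows of GRCm38.p6 (250 bases before to 50 after the start, all 6 genes matched), the CG dinucleotide occurred 57 times at Pou4f1, 37 at Isl1, 18 at Tlx3, 12 at Drgx, 10 at Prph and 2 at Avil, against a median of 7 over 27025 promoters. The 3 upstream stretches below are shown because they lie at the starts of Isl1, Pou4f1 and Tlx3, where fragments are described later, 5′ to 3′ on the gene's strand, without bases in annotated exons, and with each CG in capitals. They lie at chr13:116309690-116309938 (minus strand), chr14:104468119-104468249 (minus strand) and chr11:33203590-33203838 (minus strand).
Isl1: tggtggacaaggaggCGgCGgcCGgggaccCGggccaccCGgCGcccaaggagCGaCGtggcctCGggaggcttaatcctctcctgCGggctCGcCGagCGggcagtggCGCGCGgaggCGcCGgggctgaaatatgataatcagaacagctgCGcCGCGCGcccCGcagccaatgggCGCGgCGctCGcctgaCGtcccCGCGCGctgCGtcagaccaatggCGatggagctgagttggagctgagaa
Pou4f1: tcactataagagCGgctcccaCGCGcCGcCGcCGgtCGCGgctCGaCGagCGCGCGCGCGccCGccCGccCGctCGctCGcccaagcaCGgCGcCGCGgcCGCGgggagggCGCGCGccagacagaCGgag
Tlx3: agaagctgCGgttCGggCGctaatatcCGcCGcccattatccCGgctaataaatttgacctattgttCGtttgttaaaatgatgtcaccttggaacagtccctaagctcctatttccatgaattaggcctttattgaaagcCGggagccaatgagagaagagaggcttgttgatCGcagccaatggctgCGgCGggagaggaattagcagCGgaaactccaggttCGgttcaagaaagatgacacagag
The homeodomain core TAAT, sought on both strands, occurred 5 times in the Tlx3 promoter window, 2 times at Isl1, once at Avil and not at Pou4f1, Prph or Drgx. It is held by 58.3% of all promoters of this length. The E-box CANNTG, which reads the same on both strands, occurred 2 times at Pou4f1 and 1 time at Isl1, and 72.1% of all promoters hold it.

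The libraries were unequal in depth. The E12.5, E13.5 and E15.5 libraries held 153, 970 and 756 nuclei, with 4694066, 39896965 and 23435571 fragments in gene spans. Levels are given as counts on a per-million scale (CPM), the fragments of a gene relative to the gene-span fragments of its cluster and library. Intervals are exact 95% intervals and cover counting error only. One barcode sequence occurred in more than 1 library. By markers, both clusters 0 and 6 were neuron-like (8 of 8 measured neuron markers at least 1.5-fold above the mean of the other clusters), with 5 of 6 inhibitory markers in cluster 0 and 5 of 5 excitatory markers in cluster 6. Cluster 9 was neural progenitor-like (7 of 7), clusters 1 and 3 mesenchyme-like (6 of 6), cluster 10 muscle-like (6 of 6), and clusters 5 and 11 erythroid-like (7 of 7). Clusters 2, 4, 7 and 8 were left unnamed. No cluster was sensory neuron-like: of 7 sensory markers, which include the 6 genes, cluster 10 had 3 raised and the neuron-like cluster 6 had 2, while the shallow cluster 4 had 4 on very few fragments.

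Isl1 was open in most clusters, and its lowest value in each library, among sums of at least 10 nuclei, was in an erythroid-like cluster. Its level in cluster 0, in order of stage, was 10.8, 34.9 and 28.2 CPM (24.6 ± 12.4, SD, n = 3 libraries). In cluster 6 it was 23.5 CPM at E13.5, with 28.3 in the E15.5 library, and the 5 cluster 6 nuclei of E12.5 held 10 fragments. The neuron-like clusters overlapped in range. The mesenchyme-like cluster 1 had 46.4, 27.4 and 19.7 CPM in the same order of stages, and the muscle-like cluster 10 had 32.4 at E13.5 and 19.4 at E15.5, so the ranges of the neuron-like, mesenchyme-like and muscle-like clusters overlapped. In cluster 5 it was 2.57, 9.16 and 0 CPM, on 1, 79 and 0 fragments. These lay below every one of those values (the 2 cluster 10 nuclei of E12.5, not among them, held 0 fragments). At E13.5 the cluster 5 interval (7.25 to 11.4) overlapped that of cluster 8 (10.6 CPM, 7.36 to 14.9). Its upper bound was 14.3 at E12.5, above the cluster 0 value, and 10.4 at E15.5, above the 6.77 CPM of cluster 9. The counts do not settle which cluster was lowest. Cluster 11 held no Isl1 fragment in any library, where 3 fragments would have been 6.41 CPM in its E13.5 sum.

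Pou4f1 was low in the erythroid-like clusters and open in cluster 0. There it was 20.1, 20.6 and 25.7 CPM (22.1 ± 3.08, SD, n = 3). In cluster 6 it was 24.6 CPM at E13.5, and 30.0 CPM in the E15.5 library. The muscle-like cluster 10 reached 38.0 CPM at E13.5, the highest Pou4f1 level among the 11 sums of that library, and was 21.8 at E15.5. The cluster 5 values were 5.14, 5.91 and 5.64 CPM (5.57 ± 0.393, SD, n = 3), on 2, 51 and 2 fragments. They lay below every value of clusters 0, 6 and 10 with at least 10 nuclei, and cluster 11 again held none. In cluster 5 the 2 fragments at E12.5 came from 1 nucleus, as did the 2 at E15.5. Their intervals were 0.622 to 18.6 and 0.683 to 20.4 CPM, so the small SD does not show the counting error. At E12.5 the lowest sum was cluster 2, whose 30 nuclei held no Pou4f1 fragment (3 fragments would have been 24.8 CPM there).

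Tlx3 had its highest E13.5 level in the neural progenitor-like cluster 9. It stood at 22.4, 35.4 and 24.8 CPM in cluster 9, at 29.4, 18.7 and 22.0 in cluster 0, and at 23.5 and 16.1 in cluster 6 for E13.5 and E15.5. The cluster 9 and cluster 0 ranges overlapped. The muscle-like cluster 10 had 30.75 CPM at E13.5 and 13.7 at E15.5. Its E13.5 interval (24.8 to 37.7) overlapped that of cluster 9 (28.2 to 43.8). Cluster 5 gave 5.14, 14.3 and 2.82 CPM, but 33 of its 123 fragments at E13.5 came from 1 nucleus, and without that nucleus the E13.5 level was 10.4.

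Drgx in cluster 5 was above cluster 0 at E12.5 and below it at the later stages. In cluster 0 it was 34.0, 54.4 and 46.3 CPM (44.9 ± 10.3, SD, n = 3), and in cluster 6 it was 42.1 and 51.6 at E13.5 and E15.5, while the 5 cluster 6 nuclei of E12.5 held 36 fragments (132 CPM). The mesenchyme-like cluster 3 had 47.8, 43.3 and 39.4 CPM. The muscle-like cluster 10 had 45.96 at E13.5 and 33.9 at E15.5, and cluster 8 had 34.4 and 11.8. The ranges of clusters 3 and 10 overlapped those of clusters 0 and 6. Cluster 5 gave 116, 29.2 and 19.8 CPM. The E12.5 value rested on 10 nuclei, and 26 of its 45 fragments came from 1 of them, without which the level was 48.8.

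Prph and Avil encode cytoskeletal proteins rather than transcription factors. Prph in cluster 0 was 3.09, 18.7 and 16.3 CPM and in cluster 6 it was 8.59 and 16.6, while the erythroid-like cluster 5 gave 15.4, 14.96 and 11.3. Cluster 9 ranged from 2.80 at E12.5 to 37.9 at E13.5, so Prph had no cluster whose 3 libraries all stood above the others. Avil in cluster 0 was 47.9, 23.9 and 28.6 CPM. In cluster 6 it was 24.1 and 19.4, with cluster 5 at 5.14, 25.7 and 31.04. The mesenchyme-like cluster 1 had 58.0, 38.8 and 30.8, above cluster 0 in each library, but 13 of its 20 fragments at E12.5 came from 1 nucleus. The muscle-like cluster 10 had 22.8 at E13.5 and 21.8 at E15.5, below cluster 0. Of the 11 Avil fragments of cluster 5 at E15.5, 10 came from 1 nucleus.

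**Figure D1:**
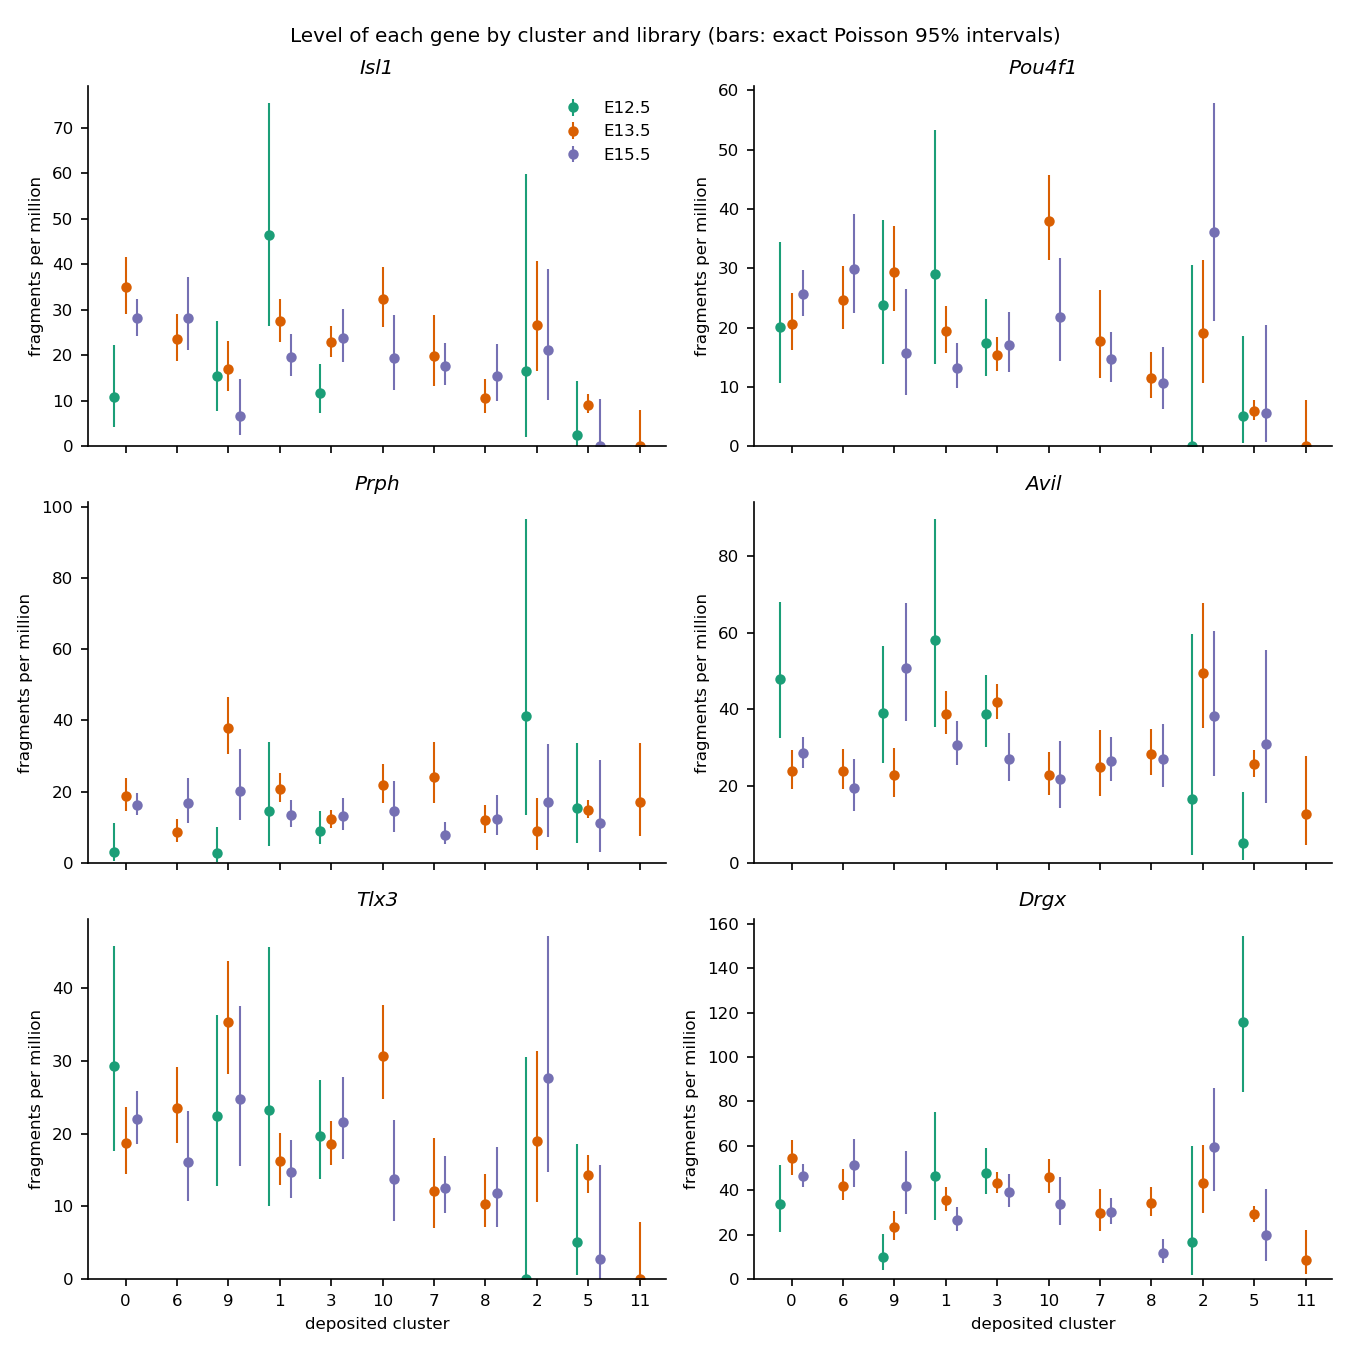
Level of each gene (CPM of gene-span fragments, linear axis from 0) in every cluster and library with at least 10 nuclei, cluster 4 left out. Points are libraries coloured by stage and bars are exact Poisson 95% intervals. At E13.5 Isl1 and Pou4f1 sit lowest in clusters 5 and 11 (5.91 CPM for Pou4f1 in cluster 5, 0 in cluster 11), and for both genes the points of clusters 0 and 6 overlap in range with those of cluster 10.

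Summed over libraries, the erythroid-like clusters 5 and 11 had 0.351 times the Isl1 level of the 9 other clusters (interval 0.276 to 0.439, 80 against 1333 fragments) and 0.272 times the Pou4f1 level (0.204 to 0.356). The ratio was 0.657 for Tlx3, 0.789 for Drgx, 0.788 for Avil and 1.01 for Prph (0.842 to 1.20). Without the erythroid-like nucleus with most fragments the ratio was 0.272 for Isl1 and 0.485 for Tlx3. In the 50 kb on either side of each span, the ratio was 0.702 for Isl1, 0.621 for Pou4f1 and 1.20 for Prph, so the flanks of Isl1 and Pou4f1 were also lower, by less than the genes. It was 0.746 for Tlx3 (0.699 to 0.796), which overlaps the interval of the gene itself (0.542 to 0.790) but not that without the nucleus with most fragments (0.388 to 0.599), and 0.746 for Avil (0.717 to 0.776), near its gene ratio of 0.788. It was 0.952 for Drgx (0.875 to 1.03). Most erythroid-like fragments came from the E13.5 library (79 of 80 for Isl1, 51 of 55 for Pou4f1, 123 of 126 for Tlx3, 228 of 242 for Avil, 256 of 308 for Drgx). Without that library the ratio was 0.0556 for Isl1 on 1 fragment (0.00141 to 0.311), 0.240 for Pou4f1 (0.0653 to 0.619) and 0.194 for Tlx3 (0.0399 to 0.571). It was then 0.562 for Avil (0.306 to 0.949), 1.46 for Prph (0.828 to 2.41) and 1.64 for Drgx (1.21 to 2.16). With the nucleus with most fragments left out as well, it was 0.161 for Avil (0.0437 to 0.413), 0.915 for Prph (0.435 to 1.70) and 0.818 for Drgx (0.532 to 1.21). For Isl1, Pou4f1 and Tlx3 it was 0, 0.12 and 0.13. By library the Drgx ratio was 2.63 (1.86 to 3.66) in E12.5, 0.696 (0.606 to 0.797) for E13.5 and 0.431 (0.173 to 0.891) for E15.5. Without the erythroid-like nucleus with most Drgx fragments it was 1.11 (0.654 to 1.785), 0.631 and 0.185. With all nuclei, in the same order, the ratio was 0.134 (0.0161 to 0.491), 0.785 and 0.967 (0.497 to 1.70) for Avil. Of the 12 erythroid-like Avil fragments of E15.5, 10 came from 1 nucleus, without which the ratio was 0.161 (0.0195 to 0.584). By library the ratio was 0.234, 0.673 and 0.127 for Tlx3, and 0.143, 0.358 and 0 for Isl1.

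In an edgeR quasi-likelihood fit to 27 sums of nuclei with library as a block, 3 of the 6 genes differed among clusters at an adjusted p under 0.05, where 51.8% of 19852 genes did. The Benjamini-Hochberg adjusted p was 0.000249 for Pou4f1, 0.000959 for Isl1 and 0.00617 for Tlx3, and 0.119 for Drgx, 0.229 for Avil and 0.8 for Prph. With cluster 11 left out, which enters with 1 library and held 0 fragments of Isl1, Pou4f1 and Tlx3, they were 0.00352 for Pou4f1, 0.0129 for Isl1 and 0.078 for Tlx3, against 36.1% of 19109 genes called. Then Isl1 was lower in cluster 5 by a log2 fold change of -1.61 ± 0.41 (SE, edgeR adjusted p = 0.0024) and Pou4f1 by -1.80 ± 0.41 (SE, edgeR adjusted p = 0.000715), with 13.2% of genes called lower there. In the fit with cluster 11 the log2 fold change in cluster 5 was -0.79 ± 64.59 (SE) for Isl1 and -0.99 ± 154.33 (SE) for Pou4f1. With SEs of that size neither could be called, while 14.7% of genes were called there (9.41% higher and 5.26% lower). Without the E13.5 library the adjusted p for any difference was 0.374 for Isl1, 0.714 for Pou4f1 and 0.678 for Tlx3, where 5.37% of genes were called. With at most 2 fragments counted per nucleus and gene, a setting chosen after the data were seen, Drgx (edgeR adjusted p = 0.000545) and Avil (0.00979) also differed among clusters, where 74.7% of genes did, and Drgx did so without the E12.5 library as well (0.00952, with 56.8% of genes called). Drgx was called in 6 of 14 alternatives and Avil in 1 of 15.

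For the neuron-like clusters, the fit called 1 of the 6 genes higher in cluster 6, Pou4f1 (log2 fold change 1.56 ± 0.44, SE, edgeR adjusted p = 0.0198), where 6.65% of genes were called and 6.12% were higher. In cluster 0 it called 2, Isl1 (1.47 ± 0.42, adjusted p = 0.0142) and Pou4f1 (1.25 ± 0.43, adjusted p = 0.0492), where 8.89% of genes were called higher. These sizes depend on the prior count that stands in for the zeros of cluster 11. Pou4f1 in cluster 0 lay close to the threshold and was called in 8 of 15 alternatives. With cluster 11 left out no gene of the 6 was called in either cluster (2.25% of genes called and 1.98% higher in cluster 6, 5.32% and 3.68% in cluster 0). Pou4f1 in cluster 6 was then 0.69 ± 0.31 (SE, adjusted p = 0.312) and Isl1 in cluster 0 was 0.61 ± 0.27 (SE, adjusted p = 0.236). Over the 6 genes the median log2 fold change was 0.86 in cluster 6 and 0.90 in cluster 0 with cluster 11 in the fit, against 0.07 and 0.10 over all genes tested, and 0.30 and 0.37 without it, against -0.03 and 0.00. The median over the 6 was of like size in other clusters, at 0.87 in the muscle-like cluster 10, 0.83 in cluster 2 and 0.66 in cluster 1, and without cluster 11 at 0.38 in cluster 9, 0.36 in cluster 2 and 0.35 in cluster 10. Without the E13.5 library no gene of the 6 was called in cluster 6 or 0, where 0.0163% and 0.531% of genes were called higher, nor without the E15.5 library, where 1.55% and 3.46% were. Without the E12.5 library Isl1 was also called in cluster 6 (1.41, edgeR adjusted p = 0.0351) and Drgx in cluster 0 (0.75, 0.0279), where 8.43% and 9.58% of genes were called higher. With at most 2 fragments per nucleus and gene, Isl1, Pou4f1 and Tlx3 were called in both clusters and Drgx in cluster 0 (0.44 ± 0.13, SE, edgeR adjusted p = 0.00758), and the share of all genes called was also larger, at 13.1% in cluster 6 and 22.4% in cluster 0.

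In the 8 other clusters 3 calls were made. Isl1 in cluster 1 (edgeR adjusted p = 0.0223), Tlx3 in cluster 9 (0.00774) and Pou4f1 in cluster 10 (0.00353) were called higher. Of all genes, 6.75% were called in cluster 1 (6.07% higher, 0.68% lower), 7.57% in cluster 9 (6.88% higher, 0.695% lower) and 8.75% in cluster 10 (8.18% higher, 0.574% lower). No gene of the 6 was called in clusters 2, 3, 7 or 8, where 12.1%, 17.7%, 3.74% and 6.13% of genes were called (8.59%, 12.6%, 3.59% and 5.38% higher, 3.48%, 5.14%, 0.156% and 0.746% lower). Without cluster 11 none of these 3 calls was made, at log2 fold changes of 0.65 ± 0.30, 0.77 ± 0.29 and 0.89 ± 0.31 (SE) and edgeR adjusted p of 0.288, 0.155 and 0.0867. There 2.77%, 3.45% and 4.82% of genes were called, and 3.39% in cluster 2.

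**Figure D2:**
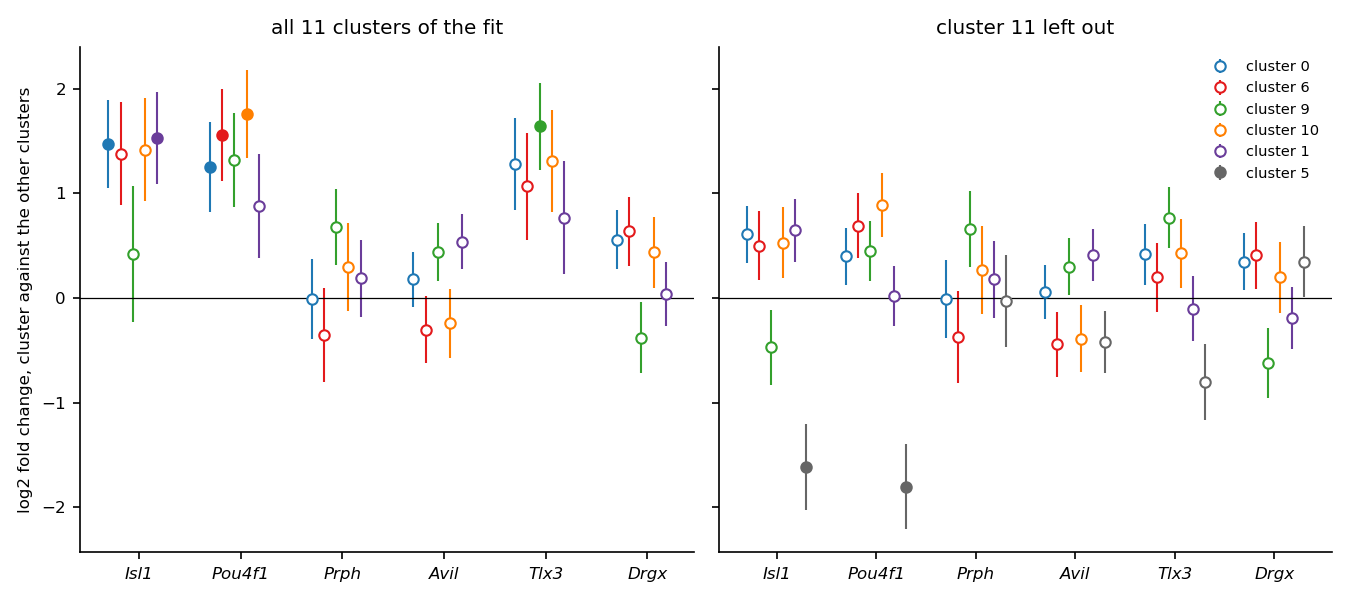
Log2 fold change of each gene in a cluster against the mean of the other clusters (points, bars ± 1 SE), filled where the edgeR adjusted p is under 0.05, from all clusters of the fit (left, cluster 5 not drawn) and with cluster 11 left out (right). The calls above 0 on the left are open on the right, where Isl1 (-1.61) and Pou4f1 (-1.80) in cluster 5 are filled.

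Between the neuron-like clusters themselves no difference was detected. Cluster 6 minus cluster 0 was 0.28 ± 0.40 for Pou4f1, 0.07 ± 0.40 for Drgx, -0.08 ± 0.42 for Isl1, -0.19 ± 0.43 for Tlx3, -0.31 ± 0.53 for Prph and -0.44 ± 0.38 for Avil (log2, SE). None of the 19852 genes was called by edgeR (0.0% called), 738 had an unadjusted p under 0.05, and DESeq2 called 21, none of them among the 6. Within single libraries the ratios went both ways: Isl1 in cluster 6 was 0.673 times cluster 0 at E13.5 (interval 0.503 to 0.895) and 1.01 times at E15.5 (0.723 to 1.38), and Prph was 0.460 times at E13.5 (0.289 to 0.717) and 1.02 times at E15.5. Drgx was 0.774 times at E13.5 (0.621 to 0.963) and Avil 0.679 times at E15.5 (0.460 to 0.977). The 5 cluster 6 nuclei of E12.5, which did not enter the fit, gave 3.39 for Isl1 (1.17 to 10.5), 2.92 for Pou4f1 (1.32 to 6.60), 3.88 for Drgx (2.22 to 6.93) and 0.230 for Avil (0.0449 to 0.736). Several of these intervals lie to one side of 1. They cover counting error only, not the spread between nuclei or libraries, and the fit over libraries called none of the genes.

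Counts for lists of other neuronal genes stand beside these, against 6.12% of all genes called higher in cluster 6 and 8.89% in cluster 0 (1.98% and 3.68% without cluster 11). Of 21 other sensory lineage factors, 10 were called higher in cluster 6 and none lower, with a list median log2 fold change of 1.03 against 0.07 over all genes. Without cluster 11, 8 were called. They included factors that act broadly in neurogenesis: Neurod1 (log2 fold change 3.08 ± 0.43, SE, adjusted p = 2.41e-06), Nhlh2 (2.83 ± 0.38), Insm1 (2.42 ± 0.36) and Neurog2 (2.23 ± 0.26) (edgeR, SE). Each was also called without cluster 11, at 2.30, 2.05, 1.54 and 2.04. In cluster 0, 5 of the 21 were called higher, against 4 without cluster 11. Of 26 measured sensory receptors, channels and peptides, 6 were called higher in cluster 6, led by Ntrk2, Nefm, Kcna1 and Gfra2, and 11 in cluster 0, against 2 and 6 without cluster 11. Of 9 other dorsal horn factors, 2 were higher in cluster 6 (Lhx5 at 1.19 ± 0.29, SE, edgeR adjusted p = 0.00491, is one) and 5 in cluster 0, against 0 and 2 without cluster 11. Of 9 measured motor neuron genes, 5 were higher in each of these clusters (3 and 1 without cluster 11), with Slc18a3, the vesicular acetylcholine transporter, at 2.48 ± 0.54 in cluster 6. Of 10 sympathetic neuron genes, 2 were higher in cluster 6 and 3 in cluster 0 (1 and 3 without cluster 11). The list medians in clusters 6 and 0 were 0.65 and 0.73 for the receptors, channels and peptides, 1.18 and 1.02 for the dorsal horn factors, 1.21 and 0.84 for the motor neuron genes, and 0.80 and 0.87 for the sympathetic genes (log2, 0.07 and 0.10 over all genes). Without cluster 11 they were 0.05 and 0.21, 0.42 and 0.49, 0.75 and 0.54, and 0.27 and 0.05 in the same order, and 0.61 and 0.23 for the lineage factors (-0.03 and 0.00 over all genes). Whether the 6 genes differ from these lists was not tested.

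Isl1 and Pou4f1 held the largest shares of fragments at the start, above its share of their length. Of 1413 Isl1 fragments 36.9% (interval 34.4 to 39.5) touched the promoter, 1000 bp before to 100 bp after the start, a stretch that makes up 8.20% of the span. The share was 36.8%, 35.6% and 39.1% in the 3 libraries. Pou4f1 had 32.2% there for 13.2% of the length. Tlx3 had 28.0% (25.5 to 30.6) for 22.7%, Prph 21.0% (18.6 to 23.6) for 18.95%, Avil 6.83% (5.77 to 8.01) for 4.94% and Drgx 4.41% (3.65 to 5.27) for 2.12%. Only the Prph interval included the share of length. The 300 bp with most Tn5 insertions sat across the start of Isl1 (chr13:116309609-116309908, 21.1% of insertions) and of Pou4f1 (chr14:104467871-104468170, 20.8%), overlapping the sequences shown above. At Isl1 this window held 0.705 insertions, on the same per-million scale, in clusters 5 and 11 against 10.1 in the other 9 clusters. At Pou4f1 it held 2.92 against 8.26. The densest windows of the other genes were also lower in clusters 5 and 11, at 1.81 against 4.02 for Prph. Each window was picked on the sum of these clusters, in which clusters 5 and 11 hold the fewer fragments. That choice favours sites open in the other 9 clusters, so these values are descriptions.

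In the other genes the densest window lay away from the annotated start. It lay partly in coding sequence at Prph (chr15:99055571-99055870) and at Tlx3 (chr11:33201355-33201654, centred 2084 bp into the gene), and in an intron with 24 exonic bases at Avil (chr10:127004748-127005047). At Drgx its centre lay at -1844 bp from the GENCODE start (chr14:32597413-32597712, 7.78 times the even density), where RefSeq predicts an earlier Drgx transcript starting at position 32597470 and GENCODE lists the unclassified transcript Gm49743 (chr14:32595333-32598118). The 300 bp around that predicted start held 224 insertions, against 124 around the curated start at 32599408 and 77 around the one at 32599927.

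**Figure D3:**
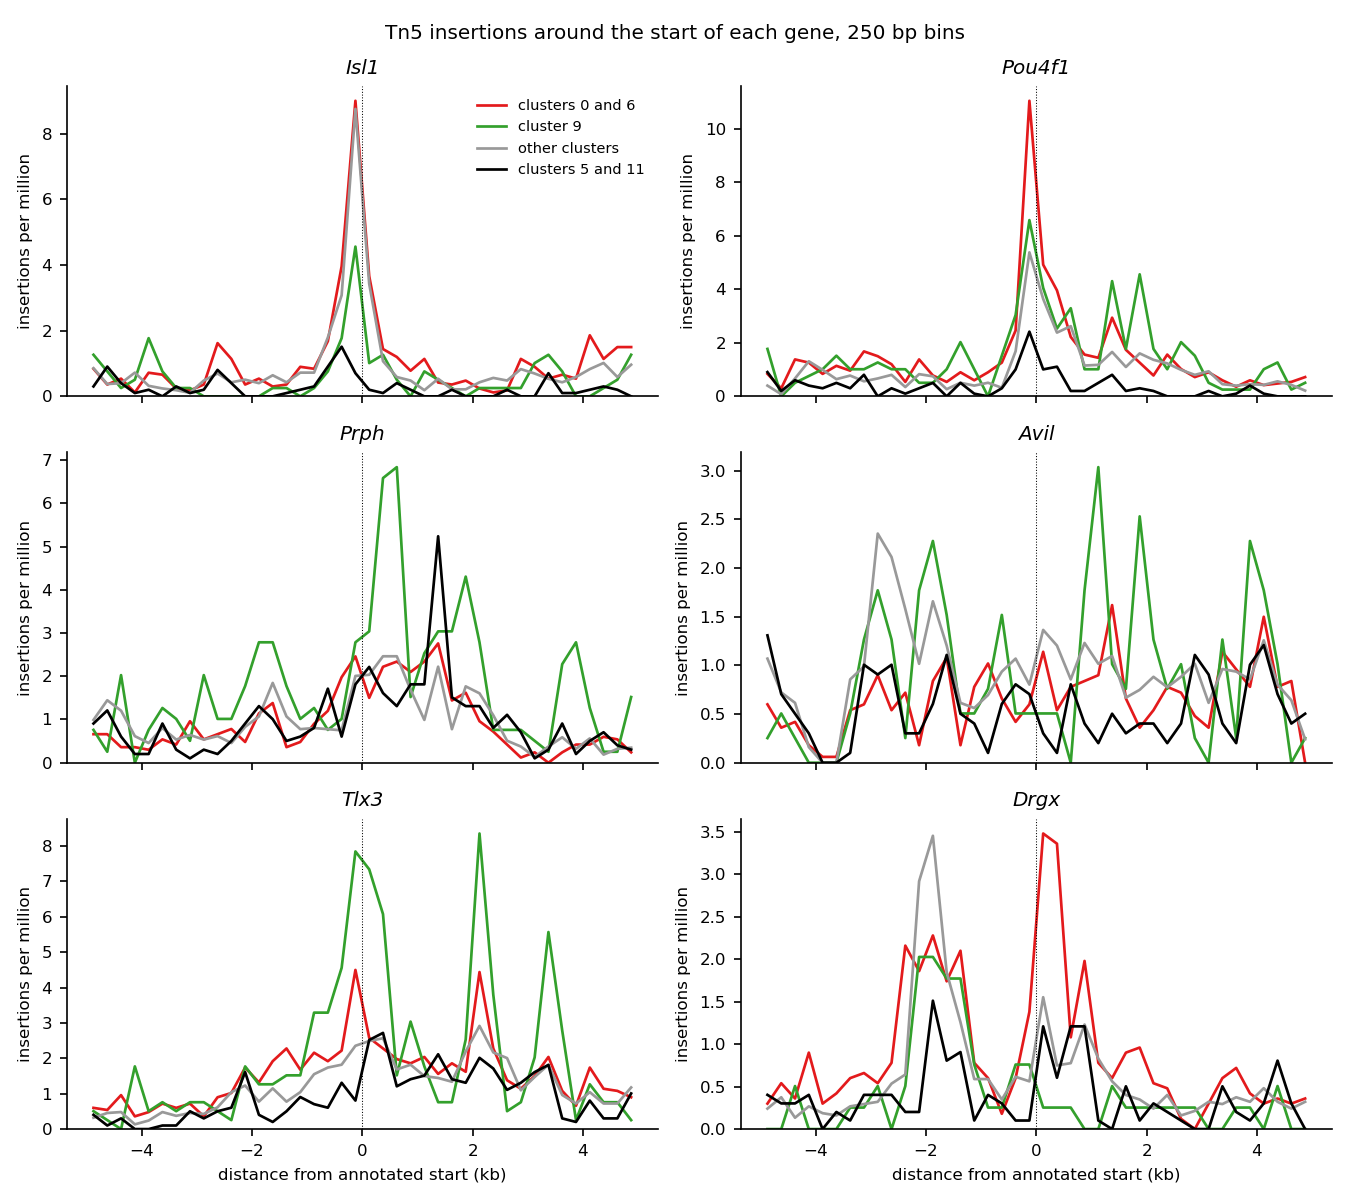
Tn5 insertions, on a per-million scale of gene-span fragments, in 250 bp bins, by distance from the annotated start (kb, negative upstream), for 4 groups of clusters with libraries summed. Isl1 and Pou4f1 peak within 500 bp before the start, lowest in clusters 5 and 11, while Drgx has signal between -2500 and -1500 bp in every group and a peak in the 500 bp after the start that is highest in clusters 0 and 6.

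At single stretches Drgx was uneven between clusters. The stretches were chosen after the profile was seen, so their ratios are descriptions. In the first 500 bp of Drgx, clusters 0 and 6 had 3.90 CPM and clusters 1, 2, 3, 7, 8 and 10 had 1.31, a ratio of 2.97 (interval 2.02 to 4.40). The ratio was 2.71 (1.58 to 4.62) at E13.5 and 3.34 (1.72 to 6.82) at E15.5, and the 65 fragments came from 42 nuclei with at most 4 in one. From -2500 to -1500 bp the same ratio was 0.944 (0.707 to 1.25). The progenitor-like cluster 9 held 2 fragments in the first 500 bp.

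Pou4f1 gave a ratio above 1 in the same clusters at its own start. In the 250 bp before it, clusters 0 and 6 had 6.84 CPM against 3.32 in clusters 1, 2, 3, 7, 8 and 10, a ratio of 2.06 (1.58 to 2.68), with 1.75 (1.18 to 2.58) at E13.5 and 2.43 (1.62 to 3.69) at E15.5. Those 6 clusters were not alike. In the 300 bp window across the Pou4f1 start the muscle-like cluster 10 held 14.0 insertions on the per-million scale, against 11.35 in cluster 0, 15.99 in cluster 6, 6.45 in cluster 1 and 3.85 in cluster 3, so cluster 10 lay between the neuron-like clusters. Isl1 gave 1.09 (0.850 to 1.39) in the stretch before its start. Near the Tlx3 start and from 250 to 750 bp into Prph, cluster 9 was high at E13.5. Within 500 bp of the Tlx3 start cluster 9 had 19.2 CPM at E13.5, 6.99 at E12.5 and 5.64 at E15.5, and against clusters 0 and 6 its ratio was 3.50 (2.23 to 5.53) at E13.5 and 0.797 (0.2499 to 1.96) at E15.5. From 250 to 750 bp into Prph the corresponding ratio was 6.07 (3.09 to 12.48) at E13.5, on 28 fragments from 14 nuclei, and 0.973 (0.190 to 3.13) at E15.5. In a 250 bp stretch further into Prph, also chosen from the profile, the erythroid-like clusters 5 and 11 had 3.12 CPM (2.12 to 4.43). Clusters 0 and 6 had 1.86 (1.26 to 2.64) and cluster 9 had 1.77 (0.713 to 3.65), both overlapping that interval. Clusters 1, 2, 3, 7, 8 and 10 had 1.26 (0.924 to 1.67), which lay below it. Of the 31 erythroid-like fragments in this stretch, 28 came from the E13.5 library.

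At a depth of 20000 fragments, about 1 nucleus in 10 had a fragment in at least 3 of the 6 genes. The share is set by the depth used. It was not taken for other sets of 6 genes, so it does not show that these genes open together. After each nucleus with at least 20000 fragments was thinned to that number, 11 of 84 nuclei at E12.5 (13.1%, interval 6.72 to 22.2), 73 of 769 at E13.5 (9.49%, 7.52 to 11.8) and 60 of 510 at E15.5 (11.8%, 9.10 to 14.9) had a fragment in at least 3 of the 6 genes. Unthinned, the shares were 56.0%, 49.3% and 52.4%. The thinned share was 14.5% in cluster 0 (10.3 to 19.5), 14.3% in cluster 6 (8.55 to 21.9), 14.8% in cluster 1 and 20.5% in cluster 9 (12.2 to 31.2). The erythroid-like cluster 5 had 3.82% (1.42 to 8.13). Cluster 2 had 2.27% (0.0575 to 12.02), the mesenchyme-like cluster 3 had 6.25% (3.37 to 10.5), cluster 8 had 6.52% and cluster 7 had 7.00%, all with intervals that overlap that of cluster 5. The muscle-like cluster 10 lay between, at 10.7% (4.72 to 19.9). The order of clusters changed with the depth used. At 10000 fragments clusters 0 and 6 had 2.29% (0.845 to 4.92, 6 nuclei) and 1.56% (0.190 to 5.53, 2 nuclei). Clusters 3 and 7 had 2.88% on 6 and 3 nuclei (1.07 to 6.17 and 0.599 to 8.20), so these intervals overlapped. Unthinned, cluster 3 had 63.0% against 54.5% in cluster 0 and 61.3% in cluster 6. These nuclei held a median of 72700 fragments before thinning in cluster 5, 70220 in cluster 0 and 67820 in cluster 6. Thinned to 20000 fragments, 1 nucleus at E12.5 and 1 at E13.5 had 5 of the 6, and none had all 6.

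**Figure D4:**
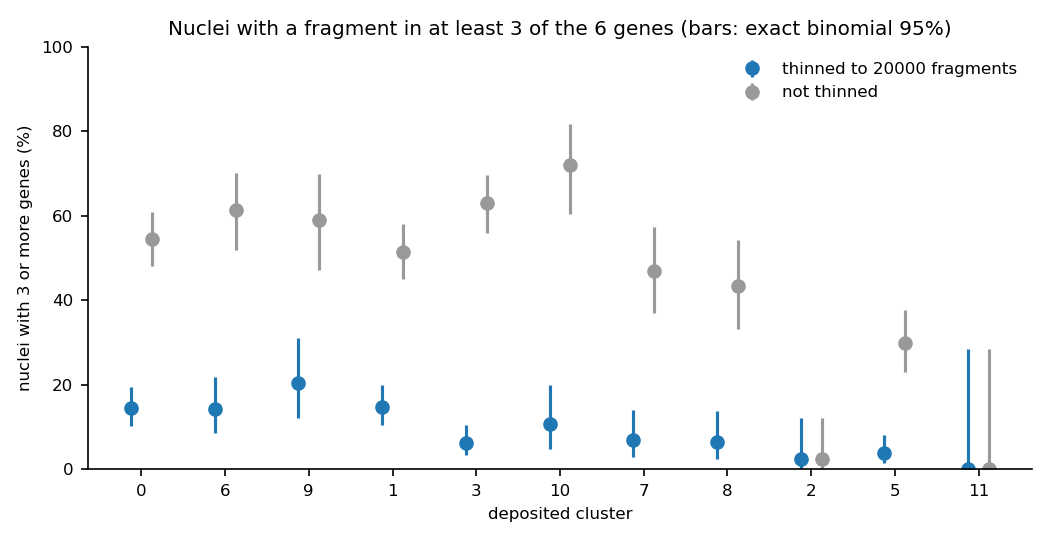
Share of nuclei (%) with a fragment in at least 3 of the 6 genes in each cluster, libraries summed, for nuclei of at least 20000 fragments, thinned to 20000 (blue) or not (grey), with exact binomial 95% intervals. The thinned shares of clusters 0, 6, 1 and 9 lie between 14.3 and 20.5%, that of cluster 10 is 10.7%, and those of clusters 5, 2, 3, 8 and 7 lie between 2.27 and 7.00%.

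Gene by gene, the thinned share of nuclei with a fragment was 25.2% for Isl1 in cluster 0 and 5.73% in cluster 5. For Pou4f1 it was 21.9% in cluster 0, 27.7% in cluster 6 and 5.73% in cluster 5. For Avil it was 21.9% in cluster 0 and 21.0% in cluster 5, and for Drgx 31.4% and 21.0%. For Prph it was 14.5% and 10.8%. For Tlx3 it was 22.7% and 10.8%. Such shares were not taken over all genes, and nuclei are not replicates of a cluster, so these values are descriptions.

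Single nuclei could carry much of a sum. The highest count in a nucleus was 35 fragments for Avil, 33 for Tlx3, 26 for Drgx, 18 for Isl1, 18 for Prph and 13 for Pou4f1. The Tlx3 nucleus was a cluster 5 nucleus of E13.5 and its fragments covered 47.0% of the counted span. It held 26.8% of that sum, a share that 0.955% of the 18528 genes with at least 20 fragments there reached. Likewise 13 of the 20 Avil fragments of cluster 1 at E12.5 came from 1 nucleus (reached by 1.60% of genes). The 19 nuclei (top 1%) with most fragments of a gene held 20.7% of Prph fragments, where genes of similar total had a median of 16.7%, and 13.7% of Pou4f1 fragments, where the median was 15.47%.

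Cluster 4 held a median of 703 fragments per nucleus and is given apart. Its 206 nuclei held 5 Isl1, 4 Pou4f1, 9 Prph, 3 Avil, 0 Tlx3 and 3 Drgx fragments over the 3 libraries. Added to the fit, none of the 6 was called against the other clusters, where 2.41% of genes were called. Prph came nearest, with 0, 4 and 5 fragments in the 3 libraries and a log2 fold change of 2.26 ± 0.77 (SE, edgeR adjusted p = 0.0981). It was called by DESeq2 (adjusted p = 0.0175) and, with edgeR, without the E12.5 library (adjusted p = 0.0352). The 2.41% above is not the share under those settings, and DESeq2 called more genes in cluster 4 than the main fit did. Of the cluster 4 nuclei, 93 shared at least 10% of their fragments with another barcode of the library.

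Across stages, with 1 library each, no test between stages was possible. Isl1 stood at 16.2 CPM at E12.5 (interval 12.8 to 20.3), 20.8 at E13.5 and 21.9 at E15.5 over all nuclei. Prph went from 8.73 (6.27 to 11.9) to 16.9 (15.6 to 18.2) and 14.3. Drgx went from 49.0 (42.9 to 55.8) to 37.6 and 36.7. Pou4f1 (19.4, 17.3 and 19.6), Tlx3 (20.03, 18.6 and 17.6) and Avil (34.7, 30.4 and 28.3) are the others. As ratios to E12.5, E13.5 was 1.93 for Prph (1.41 to 2.72), 1.29 for Isl1 (1.02 to 1.65), 0.927 for Tlx3, 0.893 for Pou4f1, 0.876 for Avil and 0.767 for Drgx (0.667 to 0.885). E15.5 was 1.64 for Prph, 1.35 for Isl1, 1.01 for Pou4f1, 0.878 for Tlx3, 0.815 for Avil and 0.749 for Drgx. The libraries also differ in the share of each cluster, and at equal weight for the 6 clusters with at least 10 nuclei in every library the E13.5 ratio was 1.33 for Isl1, 1.32 for Prph, 1.22 for Tlx3, 1.15 for Pou4f1, 0.987 for Avil and 0.848 for Drgx. The E15.5 ratio was then 1.19 for Pou4f1, 1.14 for Tlx3, 1.06 for Prph, 1.00 for Avil, 0.963 for Isl1 and 0.863 for Drgx. As a mean over nuclei, the E13.5 ratio was 3.15 for Prph and turned to above 1 for Pou4f1 (1.32), Avil (1.34) and Tlx3 (1.33), and the E15.5 ratio was 1.92 for Pou4f1, 1.40 for Tlx3 and 1.03 for Avil. At promoters the E15.5 ratio was 0.669 for Pou4f1 and 0.436 for Avil, and the E13.5 ratio 0.526 for Avil. The part of depth, makeup and stage in these ratios cannot be told apart.

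Within clusters, E15.5 over E13.5 went different ways. These ratios were not taken over all genes, so the counts of ratios under 1 have no share of genes beside them. Whether other genes of a cluster moved alike between these libraries was not tested. In cluster 10 all 6 ratios were under 1, from 0.446 for Tlx3 (0.249 to 0.753) to 0.955 for Avil. In cluster 0 they ran from 0.807 for Isl1 (0.641 to 1.02) to 1.24 for Pou4f1 (0.945 to 1.66), all with intervals that include 1. In cluster 1 all 6 were under 1, from 0.644 for Prph (0.452 to 0.909) to 0.908 for Tlx3, with intervals below 1 for Isl1, Pou4f1, Prph and Drgx. Cluster 9 gave 2.21 for Avil (1.45 to 3.34), 1.78 for Drgx (1.14 to 2.75), 0.537 for Pou4f1 (0.279 to 0.964), 0.536 for Prph (0.304 to 0.896) and 0.397 for Isl1 (0.138 to 0.943). In the mesenchyme-like cluster 3 Avil gave 0.644 (0.495 to 0.829). In cluster 6 Prph gave 1.94 (1.13 to 3.33) on 30 fragments in each library.

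**Figure D5:**
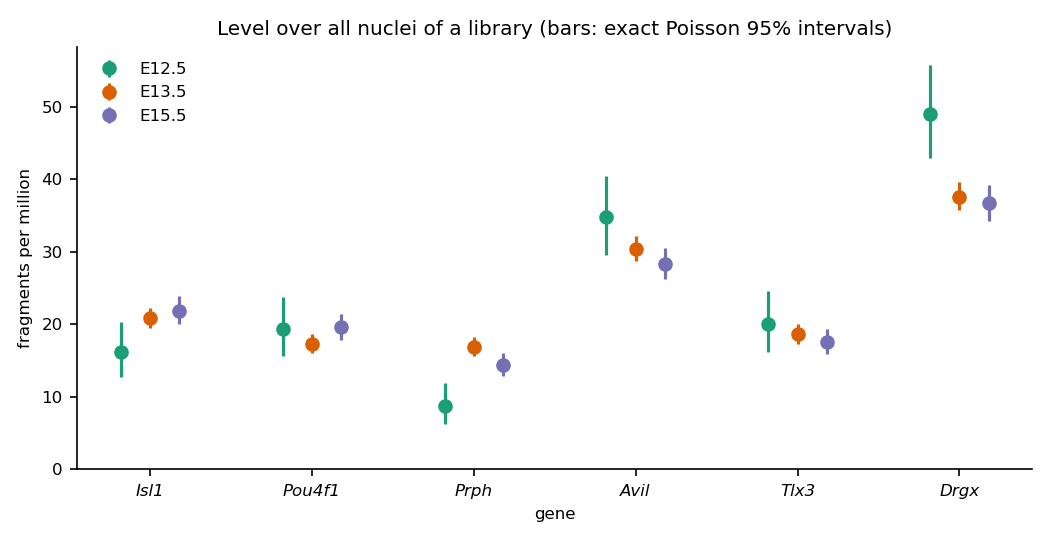
Level of each gene (CPM of gene-span fragments) over all nuclei of each library, with exact Poisson 95% intervals. Prph is lowest at E12.5 (8.73) and Drgx highest there (49.0), and the 3 stages of Pou4f1 lie between 17.3 and 19.6.

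Per kilobase of counted span, Tlx3 had the highest level of the 6, at 4.16, 3.84 and 3.64 CPM per kb in the 3 libraries without cluster 4, above 92.5%, 89.4% and 88.4% of genes. Drgx was lowest at 0.945, 0.726 and 0.708, below the median gene (1.13, 1.13 and 1.09). The order differed with the stretch counted, and why was not tested. In promoters of equal length Isl1 held 522 fragments and Pou4f1 398, against 349 for Tlx3 and 114 for Drgx. Prph had 1.51, 2.89 and 2.44, Pou4f1 2.34, 2.08 and 2.34, Isl1 1.21, 1.55 and 1.63, and Avil 1.56, 1.36 and 1.27. Among relatives, Isl2 had 2.95, 3.36 and 3.14 CPM per kb, above Isl1 in each library, and Tlx2 had 2.59, 3.82 and 3.09, against 3.84 for Tlx3 at E13.5. Pou4f2 had 2.88, 1.54 and 1.90.

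By the pattern of log2(CPM + 1) over the 27 sums, Pou4f1 and Tlx3 were the closest pair among the 6, with Pearson r of 0.947. Isl1 had 0.660 with Pou4f1 and 0.647 with Tlx3. Avil had 0.546 with Tlx3 and 0.496 with Pou4f1, and Drgx had 0.455 and 0.477 with the same genes. Prph had -0.237 with Pou4f1 and -0.360 with Avil. The sums share libraries, differ in depth, and Isl1, Pou4f1 and Tlx3 share the zeros of cluster 11. Pou4f1 and Tlx3 also share a zero in cluster 2 at E12.5, where Isl1 had 16.5 CPM on 2 fragments, so these values are descriptions. The genes nearest to Isl1 were Nkx6-1 (0.916), Hoxa10 (0.891) and Slc2a12 (0.890). Tlx3 was nearest to Pou4f1, followed by Zfp580 (0.938). Those nearest to Tlx3 were Zfp580 (0.9495), Steap2 (0.947) and Pou4f1. For the other genes the nearest were Dvl1 (0.692), 4932438H23Rik (0.692) and Prkab2 (0.681) for Prph, Olfr522 (0.795), Spata4 (0.785) and Rspo2 (0.783) for Avil, and Reg3d (0.811), Sycp2l (0.789) and Olfr806 (0.783) for Drgx.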

How the data were processed

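Single-nucleus ATAC-seq libraries of E12.5, E13.5 and E15.5 embryos (1 each) were used. Per the labels and the study's methods, the authors mapped reads to mm10 and counted with Cell Ranger ATAC 2.0.0, and the submitters' processing notes also name Signac 1.6.0 and Seurat 4.1.0. The deposited fragment files give each unique fragment with a count of its read pairs, and the deposited table gives each nucleus its fragment count, library and cluster. The table's 20 other columns were not used. Unique fragments, not read pairs, were counted.

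Fragments overlapping the body plus 2000 bp upstream of 21593 protein-coding genes (GENCODE vM21, of 21938, with 91 Pcdh and Ugt genes and 228 spans over 500 kb among those left out) were summed per cluster and library. Drgx is listed there as Prrxl1. Sums of at least 10 nuclei without cluster 4 were tested with edgeR 4.0.16 in R 4.3.3 (quasi-likelihood, TMM, filterByExpr, library as block, Benjamini-Hochberg over all genes, threshold 0.05). DESeq2 1.42.0 was an alternative. On simulated counts for cluster 6 against the others over 19852 genes, 51% of 2-fold and 87% of 4-fold changes were called, along with 10 genes simulated without a change. Levels, shares and ratios carry exact 95% intervals (Poisson, Clopper-Pearson, conditional binomial). Doublets were not removed, and an alternative left out the deepest 10% of nuclei. Some nuclei (5, 32 and 138 in the 3 libraries) shared at least 10% of their fragments with another barcode, and an alternative kept 1 of each group. The labels name no separate animals, so p-values measure the spread between cluster sums of these libraries.

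The 6 genes and all lists were chosen with earlier results of these data known. Named genes are the 6, up to 4 per list with the smallest p in cluster 6, and the 3 with the most similar pattern to each, and a few genes that these rules name are not reported here. Numpy 2.4.6, scipy 1.17.1, pandas 2.3.3 and matplotlib 3.10.9 were used in Python 3.11.15.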

Additional observations from a re-analysis of the deposited data

Results flagged for a closer look

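Barcodes with at least 1000 fragments that the deposited table leaves out were not part of any comparison, and they also carried fragments of the 6 genes. There were 36 such barcodes at E12.5 with 27 fragments of the 6 genes, 546 at E13.5 with 1022, and 272 at E15.5 with 689. On a per-million scale of all their fragments this was 90.3 (interval 59.5 to 131), 71.1 (66.8 to 75.6) and 71.8 (66.5 to 77.4), against 80.8, 84.4 and 82.1 in the nuclei of the table. At E13.5 the sum held 349 Drgx, 248 Avil, 121 Prph, 118 Isl1, 95 Tlx3 and 91 Pou4f1 fragments. There are no control samples. Each sum was above the 3 fragments that a count of 0 allows. At the level of the table's nuclei any sum of this depth would be, so this says nothing about the barcodes. The interval of the level lay below the value of the table's nuclei for E13.5 and E15.5 and included it for E12.5. What these barcodes are was not tested.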

How the results depend on the processing

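No paired analysis was possible because each stage has 1 library, so there is no second replicate to pair between stages. The comparisons of clusters hold library as a term, and the fit without it is among the alternatives. Counting at most 2 fragments per nucleus and gene, leaving out cluster 11, the nucleus with most fragments or a library from the erythroid-like ratio, the 50 kb flanks and the stretches around the starts were chosen after seeing the data.

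The count of genes that differed among clusters was 10278, and 991 to 11396 without single libraries, lowest without E13.5. For cluster 6 against the others it was 1321, with 2106 when clusters 2 and 3 were left out, 2515 with at most 2 fragments, 429 with cluster 11 left out and 3 to 1926 without single libraries. For cluster 0 it was 2176, with 3406, 4316 and 1017 under the same settings and 104 to 2411 without single libraries. For cluster 6 against cluster 0 it was 0, with 21 by DESeq2, 30 for promoters, 97 with at most 2 fragments, 7 without the deepest 10% of nuclei, 4 with at least 20 nuclei per sum, 4 without a library term, 1 with nuclei of at least 3000 fragments, 1 with 1 barcode per linked group, and 0 to 15 without single libraries. For cluster 4 it was 475, with 729 by DESeq2, 24 with 1 barcode per linked group and 17 to 631 without single libraries. Calls of the 6 genes in the other 8 clusters numbered 3, where 9.68% of all tests of a gene in those clusters were called. They numbered 5 by DESeq2 (13.1%), for promoters (8.84%) and without a library term (9.76%), 6 with clusters 2 and 3 left out (10.4%), 9 with at most 2 fragments (17.5%) and 1 to 5 without single libraries (2.14% without E13.5, 3.32% without E15.5 and 11.7% without E12.5). Fewer of the 8 clusters were tested with clusters 2 and 3 left out, without E13.5 and without E15.5. The sums were also fewer where a library or cluster was left out. The cause of these changes was not tested.

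Differences of single genes that changed sign were not called under the setting that turned them. Without single libraries the log2 differences ran from -0.26 to 0.40 for Isl1 in cluster 6 against 0 and from -0.27 to 2.26 in cluster 4, and from -7.61 to 1.96 for Pou4f1 in cluster 4, where sums hold no fragment and the prior count sets the size. For Prph they ran from -1.03 to 0.23 in cluster 6, -0.21 to 0.22 in cluster 0 and -0.75 to 0.40 in cluster 6 against 0. For Avil they ran from -0.04 to 0.36 in cluster 0 and -1.23 to 0.16 in cluster 4. For Tlx3 in cluster 6 against 0 they ran from -0.62 to 0.00, and for Drgx from -0.09 to 0.35 there and from -1.35 to 0.06 in cluster 4. With 1 barcode per linked group cluster 4 gave -7.59 for Pou4f1 and 0.02 for Drgx, cluster 0 gave 0.03 for Prph, and cluster 6 against 0 gave -0.03 for Drgx. For promoters Prph was 0.03 in cluster 6 and 1.20 in cluster 0, and Avil -0.06 in cluster 0. With at least 20 nuclei per sum, cluster 0 gave 0.20 for Prph and -0.02 for Avil, and Drgx gave -0.08 in cluster 6 against 0. Prph in cluster 0 was 0.01 with no filter on low counts, 0.04 with clusters 2 and 3 left out, 0.04 without the deepest 10% and 0.03 with nuclei of at least 3000 fragments, where Drgx gave -0.02 in cluster 6 against 0. With at most 2 fragments Avil was 0.01 in cluster 6, and cluster 6 against 0 gave 0.00 for Prph, 0.14 for Tlx3 and -0.11 for Drgx.

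Without the nucleus with most fragments the E13.5 level was 7.07 CPM for Isl1 in cluster 5, 14.3 for Prph and 16.8 for Avil in cluster 0, and 10.4 for Tlx3 in cluster 5. The stage ratios also moved. At equal weight of clusters E15.5 over E12.5 was 0.963 for Isl1, 1.00 for Avil, 1.06 for Prph and 1.14 for Tlx3, and E13.5 over E12.5 was 1.15 for Pou4f1, 1.32 for Prph and 1.22 for Tlx3. As a mean over nuclei E13.5 over E12.5 was 1.32 for Pou4f1, 3.15 for Prph, 1.34 for Avil and 1.33 for Tlx3, and E15.5 over E12.5 was 1.92, 2.36, 1.03 and 1.40. At promoters E13.5 over E12.5 was 0.668 for Pou4f1, 0.526 for Avil, 0.715 for Tlx3 and 0.610 for Drgx, and E15.5 over E12.5 was 0.669 for Pou4f1 and 0.436 for Avil. The share of nuclei with fragments in several genes is given for E12.5, E13.5 and E15.5 in order. It was 1.12%, 2.25% and 2.82% at 10000 fragments, and 1.19%, 0.260% and 0.392% at promoters. It was 30.95%, 31.6% and 34.5% for at least 2 genes, and 4.76%, 2.08% and 2.75% for at least 4.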
